A study of Mus musculus with 4 samples.

Results

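The Egr and Nr4a genes were examined in RNA-seq gene counts of CD4+ T cells sorted from the spleen (strain C57BL/6), 2 libraries labelled WT and 2 labelled *Satb1* conditional knockout (cKO). The 6 genes, *Egr1*, *Egr2*, *Egr3*, *Nr4a1*, *Nr4a2* and *Nr4a3*, were taken by symbol from the 55367 gene symbols in each table, and all 6 passed the low-count filter that left 12403 genes for testing. In the study, floxed *Satb1* alleles were deleted by *Thpok-cre*, which acts once thymocytes commit to the CD4 lineage and therefore in conventional CD4+ T cells and regulatory T cells (Tregs) alike. The cells were not stimulated. The mice were adults of mixed sexes, with neither age nor sex given for a library, and whether WT mice carried Cre or floxed alleles is not stated.

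Egr proteins are zinc finger transcription factors and Nr4a proteins are orphan nuclear receptors. Both families are switched on within minutes to hours of antigen receptor engagement, through Ras-ERK signalling to SRF and its partners and through calcineurin, NFAT and MEF2. *Nr4a1* reporters are widely used to read recent antigen signalling in T cells. *Egr2* and *Egr3* are known for restraint of T cell activation, and Nr4a factors for roles in Treg development, anergy and exhaustion.

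None of the 6 genes differed between the genotypes in the edgeR quasi-likelihood test (adjusted p under 0.05), where 4.30% of all tested genes did (2.35% higher and 1.95% lower in cKO). At an unadjusted p under 0.05 the count was 1 of 6, *Egr2*, against 19.1% of all tested genes. WT and cKO libraries did not overlap for 1 of the 6, again *Egr2*, against 50.3% of all tested genes. For the 5 more abundant members the dispersion pooled over genotypes exceeded that of most well expressed genes (average log2 CPM 5 or more), although *Egr3*, *Nr4a1* and *Nr4a3* differed less between the cKO libraries than most such genes, and each of the 6 was higher in WT 1 than in WT 2. Other genes induced by the antigen receptor were called higher in cKO in 7 of 31 cases, among them *Rgs1*, *Cd69* and *Tnfaip3*. That number changed strongly when WT 2 or cKO 2 was left out, as did the number called higher over all tested genes.

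The sequence before the start site is shown for the members with a promoter window in the RefSeq set. Sites for NFAT and MEF2 were not searched for. Windows of GRCm38.p6 were found for 4 of the 6 members, *Egr2*, *Nr4a1*, *Nr4a2* and *Nr4a3*. Each line gives up to 150 bases that lie in no annotated exon, 5′ to 3′ on the strand of the gene. For *Nr4a3* the stretch ends 153 bases before the RefSeq start site, because the annotated gene begins upstream of that site. Capitals mark the core motif of the cyclic AMP response element (CRE), TGACG on either strand, and in *Egr2* also the CArG box, the element bound by SRF. The stretches lie at chr10:67537719-67537868 (plus strand, *Egr2*), chr15:101266696-101266845 (plus, *Nr4a1*), chr2:57124004-57124153 (minus, *Nr4a2*) and chr4:48045055-48045152 (plus, *Nr4a3*).
Egr2: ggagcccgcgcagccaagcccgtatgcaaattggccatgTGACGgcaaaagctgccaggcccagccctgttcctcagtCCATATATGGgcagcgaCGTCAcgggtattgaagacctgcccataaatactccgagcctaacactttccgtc
Nr4a1: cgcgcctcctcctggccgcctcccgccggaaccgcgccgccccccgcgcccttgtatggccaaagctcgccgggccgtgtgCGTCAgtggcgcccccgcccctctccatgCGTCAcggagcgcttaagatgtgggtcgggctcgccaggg
Nr4a2: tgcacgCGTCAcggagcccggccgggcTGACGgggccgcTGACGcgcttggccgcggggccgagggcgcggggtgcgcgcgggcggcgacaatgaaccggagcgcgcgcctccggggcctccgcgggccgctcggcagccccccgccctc
Nr4a3: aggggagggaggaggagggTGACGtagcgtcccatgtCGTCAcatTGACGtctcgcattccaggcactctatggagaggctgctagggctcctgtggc

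Over the 250 bases before the start site, searched on both strands, *Nr4a1*, *Nr4a2* and *Nr4a3* each held 4 CRE core motifs. In *Nr4a3* the motif 147 to 143 bases before the start site (48045305) lies within the annotated gene, which begins at 48045153. At least 4 such motifs were present in 0.137% of the 32851 promoter windows of that length, and at least 1 in 17.8%. *Egr2* has 5 windows, and the one ending at the start site shown (67537869) held 2 core motifs and 1 CArG box. Of its other windows, those at 67537870 and 67537930 cover the same motifs, the one at 67537566 held a CArG box and no core motif, and the one at 67535499 held neither. A CArG box was present in 1.47% of all windows. The full CRE octamer TGACGTCA was found in none of these members' windows and in 1.55% of all windows. The Egr site GCGTGGGCG and the Nr4a site AAAGGTCA, known as the NBRE, were likewise in none, against 0.536% and 1.34% of all windows. Core motifs overlap the octamer by construction, and a match in letters is not a bound site.

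**Figure D1:**
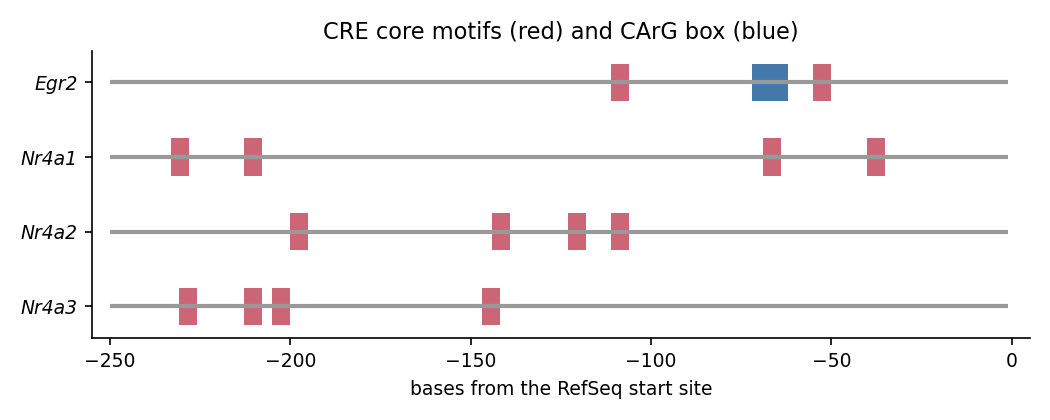
Positions of CRE core motifs (red, TGACG on either strand) and of the CArG box (blue) in the 250 bases before the RefSeq start site, on a scale in bases. The 3 Nr4a genes each carry 4 core motifs, and *Egr2* carries 2 with the CArG box between them. The core motif of *Nr4a3* nearest its start site lies within the annotated gene.

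The total gene count per library was between 4495902 and 6555699, so 1 count is worth under 1 CPM (counts per 1e+06) in every library. The labelled cell type was checked by *Cd4*, at between 1183 and 1279 CPM, and *Cd3e*, at between 788 and 966 CPM. *Satb1*, the targeted gene, was counted 5677 and 4390 times in WT, and 4958 and 3986 times in cKO (log2 fold change -0.05, SE 0.12, edgeR quasi-likelihood adjusted p = 0.877). Its gene-level count thus does not separate the labels, and each direction given here rests on the labels. *Xist* was counted 5447 and 4235 times in WT but 9 and 6 times in cKO, and the Y-linked *Ddx3y* 0 and 0 against 525 and 597, so sex and genotype cannot be told apart in any comparison. The labels do not say that libraries came from separate mice, although the study describes them as biological replicates. The p-values measure the spread between these libraries, which may be technical in part. In bulk RNA, fewer cells of a type and less RNA per cell cannot be told apart.

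*Egr1* (chromosome 18, 34859823 to 34864984, plus strand of GRCm38) encodes the founding Egr factor, an immediate early gene. Its count was 1629 (WT 1), 863 (WT 2), 1315 (cKO 1) and 893 (cKO 2), which is 249, 193, 251 and 190 CPM. Each genotype had 1 library near 250 CPM and 1 near 190, and the genotypes overlapped fully. Expression was 221 ± 39.5 CPM (SD, n = 2) in WT and 220 ± 43.0 CPM (SD, n = 2) in cKO. The log2 fold change was -0.01 (SE 0.16, edgeR quasi-likelihood adjusted p = 0.987). The 95% interval of the fold was 0.77 to 1.28.

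*Egr2* (chromosome 10, 67535475 to 67542188, plus strand) encodes the Egr factor best known in T cell anergy, and was counted 320 and 152 times in WT, then 338 and 233 times in cKO. These are 48.9 and 34.1 CPM in WT against 64.4 and 49.5 CPM in cKO. The lower cKO library lay just above the higher WT library, so the genotypes were separated by less than the gap within either. Mean expression was 41.5 ± 10.5 CPM (SD, n = 2) in WT and 57.0 ± 10.5 CPM (SD, n = 2) in cKO. The log2 fold change of 0.44 (SE 0.19) did not pass the threshold, with an unadjusted p = 0.0469 and an edgeR quasi-likelihood adjusted p = 0.255. The 95% interval of the fold was 1.01 to 1.84. The call changed when single libraries were left out: the value was 0.75 without WT 1 (adjusted p = 0.0374) and 0.61 without cKO 2 (adjusted p = 0.0183), and 0.22 without WT 2 (adjusted p = 0.846) and 0.23 without cKO 1 (adjusted p = 0.480).

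*Egr3* (chromosome 14, 70077203 to 70082614, plus strand) encodes a close relative of *Egr2* with which it shares many functions in T cells. Its count was 523 (WT 1), 197 (WT 2), 357 (cKO 1) and 314 (cKO 2). On the CPM scale the WT libraries, at 80.0 and 44.1, lay on either side of the cKO libraries, at 68.0 and 66.7. The log2 fold change was 0.10 (SE 0.23, edgeR quasi-likelihood adjusted p = 0.860), with an interval of the fold from 0.75 to 1.54. It was -0.25 without WT 2 and 0.62 without WT 1 (adjusted p = 0.755 and 0.0925).

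*Nr4a1* (chromosome 15, 101254269 to 101274795, plus strand) encodes Nur77, the best known transcriptional reporter of antigen signalling. It had 1006, 500, 651 and 583 counts in WT 1, WT 2, cKO 1 and cKO 2. The WT libraries, at 154 and 112 CPM, again bracketed the cKO libraries, which were nearly equal at 124.1 and 123.9 CPM. The log2 fold change was -0.11 (SE 0.15, edgeR quasi-likelihood adjusted p = 0.750). The interval of the fold, from 0.74 to 1.17, was the narrowest among the Nr4a genes. The value was -0.31 without WT 2 and 0.15 without WT 1 (adjusted p = 0.578 and 0.873).

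*Nr4a2* (chromosome 2, 57106830 to 57124003, minus strand), which encodes Nurr1, was the least abundant member. It had 39 and 18 counts in WT and 12 and 21 in cKO, or 5.97, 4.03, 2.29 and 4.46 CPM. The lowest value was in cKO 1, and cKO 2 lay between the WT libraries. Counting error alone spans a wide range at this depth, with an exact Poisson 95% interval of 1.18 to 3.99 CPM for cKO 1 and of 4.24 to 8.15 CPM for WT 1. Because reads lack molecular identifiers and need not be separate molecules, such intervals cover counting error only. The log2 fold change was -0.61 (SE 0.42, edgeR quasi-likelihood adjusted p = 0.484), and the interval of the fold, 0.34 to 1.27, does not separate a marked fall from no difference. It ran from -1.15 without cKO 2 to -0.20 without cKO 1 (adjusted p = 0.145 and 0.817).

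*Nr4a3* (chromosome 4, 48045153 to 48086447, plus strand), which encodes NOR1, was counted 444 and 181 times in WT, then 321 and 317 times in cKO. WT 1, at 67.9 CPM, was close to both cKO libraries, at 61.2 and 67.4 CPM, and WT 2 was lowest at 40.6 CPM. The log2 fold change was 0.23 (SE 0.21, edgeR quasi-likelihood adjusted p = 0.616), with an interval of the fold from 0.84 to 1.63. The value was 0.67 without WT 1 (adjusted p = 0.0615) and -0.08 without WT 2 (adjusted p = 0.954). No annotated exon of another gene overlaps the exons of any of the 6 members on the opposite strand, so the unstated strand setting of the counting cannot add reads of such a gene to their counts.

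**Figure D2:**
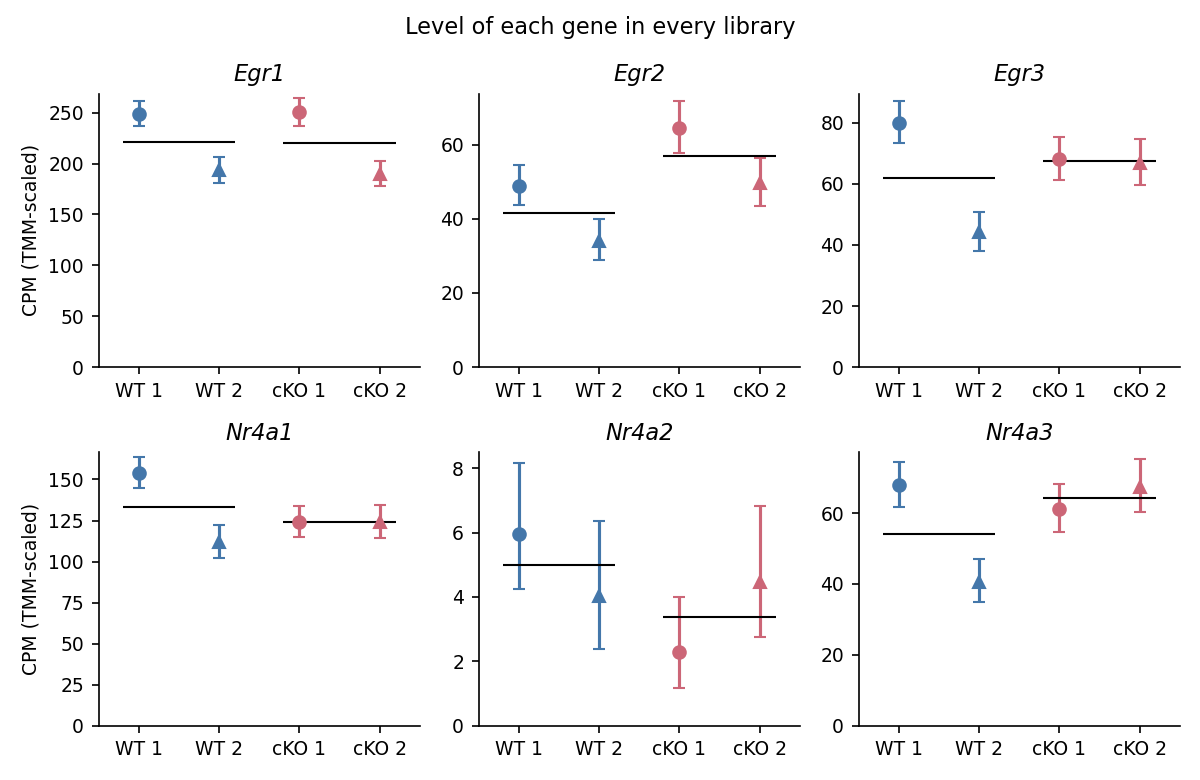
CPM (linear axis from 0) of each gene in WT 1, WT 2, cKO 1 and cKO 2, with exact Poisson 95% intervals as bars and the mean of each genotype (n = 2) as a black line. For *Egr3*, *Nr4a1* and *Nr4a3* the cKO libraries lie close together and at least 1 WT library lies well away from them, and only *Egr2* has both cKO libraries above both WT libraries.

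To compare levels between genes, CPM was divided by exon length in kilobases (RPKM). *Egr1* was highest, at 49.2 ± 7.51 RPKM (SD, n = 4 libraries), above 92.1% of tested genes, followed by *Nr4a1* at 36.6 ± 5.09 RPKM. Their ranges over libraries touched, from 42.3 to 55.9 and from 31.9 to 43.9 RPKM, although *Egr1* was the higher of the pair in each library. *Egr3* (14.7 ± 3.40 RPKM), *Egr2* (14.5 ± 3.65 RPKM) and *Nr4a3* (9.90 ± 2.14 RPKM) followed, and neighbours in this order overlapped. *Nr4a2*, at 1.03 ± 0.373 RPKM, lay above 7.80% of tested genes and apart from all other members. *Egr4*, the remaining gene of its family, had 4 and 0 counts in WT and 1 and 3 in cKO. It was not tested, and in 3 of 4 libraries it was at or under the floor of 3 counts.

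Ratios taken within a library do not depend on how libraries are scaled, and 7 pairs of members were compared in this way after their values were seen. The count of *Egr2* relative to *Egr1* was 0.196 and 0.176 in WT against 0.257 and 0.261 in cKO, with both cKO libraries above both WT libraries. *Nr4a3* relative to *Nr4a1* was 0.441 and 0.362 in WT against 0.493 and 0.544 in cKO. *Nr4a3* relative to *Nr4a2* was also higher in both cKO libraries (26.8 and 15.1) than in WT (11.4 and 10.1), on few *Nr4a2* counts. The other 4 pairs overlapped, among them *Nr4a1* to *Egr1*, at 0.618 and 0.579 in WT and 0.495 and 0.653 in cKO. Complete separation of WT from cKO was also seen in the levels of 50.3% of all tested genes. A matching share for ratios of gene pairs was not computed, and the 7 pairs share members, so they are not independent. At n = 2 per genotype the smallest p of an exact permutation test (two-sided) is 0.333, so these ratios are a description.

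The spread between libraries of a genotype was compared with that of other well expressed genes. The biological coefficient of variation fitted by edgeR was 16.4% for *Egr3*, 14.9% for *Nr4a3*, 13.5% for *Egr2*, 11.9% for *Egr1* and 11.1% for *Nr4a1*. These values exceeded those of 98.96%, 98.6%, 97.1%, 93.4% and 89.0% of the 6068 tested genes with an average log2 CPM of at least 5. This band is not matched for abundance, and *Egr2*, *Nr4a3* and *Egr3* lie towards its lower end. The trend fitted by edgeR at the abundance of each gene was 9.8%, 9.9%, 10.1%, 8.9% and 9.3%, in the same order. *Nr4a2*, at 21.2%, lies below that abundance and was not placed among these genes.

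The libraries of each genotype were then compared directly. The CPM ratio of WT 1 to WT 2 was 1.81 for *Egr3* (exact binomial 95% interval 1.54 to 2.15), 1.67 for *Nr4a3* (1.41 to 2.002) and 1.44 for *Egr2* (1.18 to 1.75). It was 1.37 for *Nr4a1* (1.23 to 1.53), 1.29 for *Egr1* (1.19 to 1.40) and 1.48 for *Nr4a2* (0.83 to 2.75). All 6 ratios were above 1. The intervals cover counting error only, so each ratio was also set beside the 6068 genes of the same band. A WT ratio at least as high was seen in 0.0989% of them for *Egr3*, 0.148% for *Nr4a3*, 0.264% for *Egr2*, 0.527% for *Nr4a1* and 1.10% for *Egr1*. The ratio of cKO 1 to cKO 2 was 1.32 for *Egr1* (1.21 to 1.44), 1.30 for *Egr2* (1.10 to 1.54), 1.02 for *Egr3*, 1.001 for *Nr4a1* and 0.91 for *Nr4a3*. A cKO ratio at least as high was seen in 5.90%, 6.94%, 52.1%, 56.3% and 78.6% of the 6068 genes, in that order. For *Nr4a2* the ratio was 0.51 (0.23 to 1.09), a larger difference than between the WT libraries, and *Egr1* also differed slightly more within cKO than within WT.

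**Figure D3:**
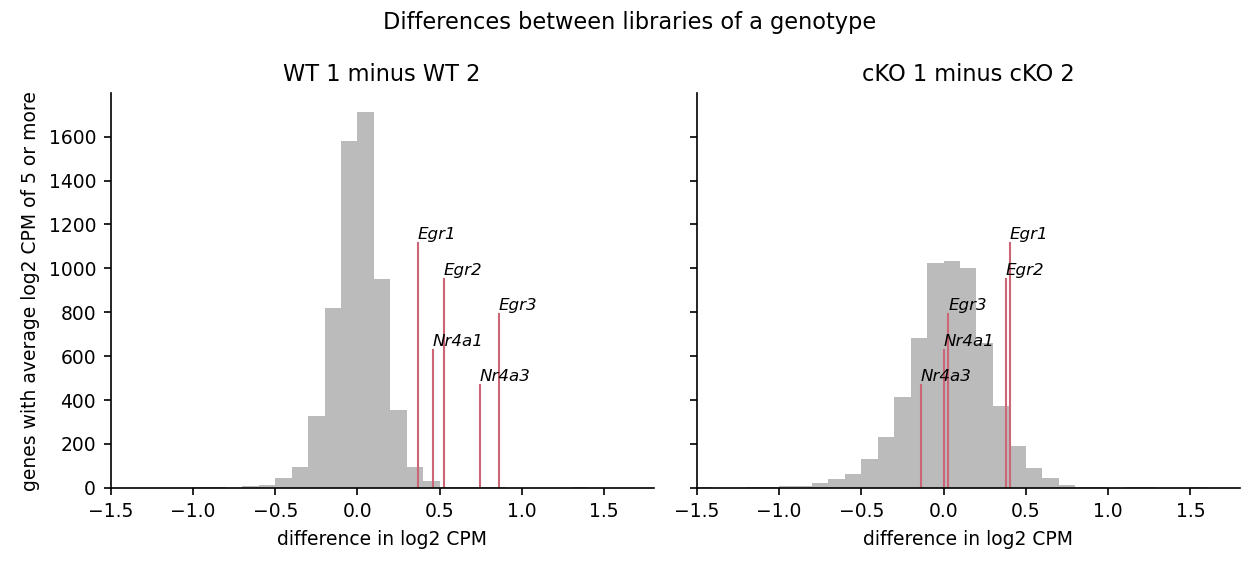
Histograms (grey) of the difference in log2 CPM between the libraries of a genotype over the 6068 tested genes with an average log2 CPM of at least 5, with the 5 members of that abundance marked in red. For WT 1 minus WT 2 all 5 lie in the right tail, from 0.37 to 0.86, and for cKO 1 minus cKO 2 they lie between -0.14 and 0.40.

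**Figure D4:**
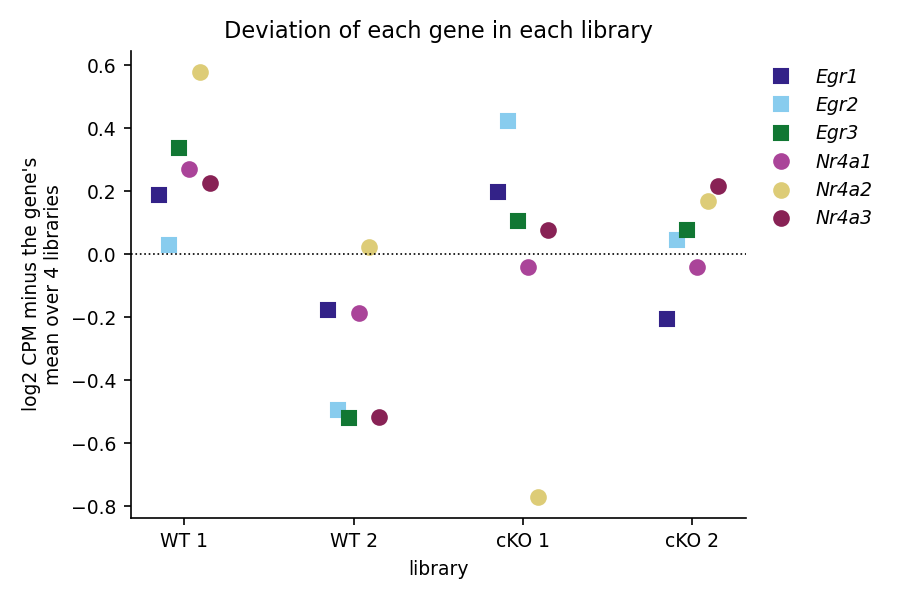
Log2 CPM of each gene minus its own mean over the 4 libraries, by library, with Egr genes as squares and Nr4a genes as circles. WT 1 lies above 0 for all 6 genes, WT 2 below 0 for all except *Nr4a2*, and the cKO libraries have genes on both sides.

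Genes whose profile over the 4 libraries was most like each member were sought among 52 tested genes of the activation-related lists, by the distance between centred log2 CPM values. *Nab2* was nearest to *Nr4a1* (distance 0.16, where the median gene lay at 0.58) and to *Egr1* (0.20, median 0.57), and second for *Egr3*. *Fosl2* was nearest to *Nr4a3* (0.19) and to *Egr3* (0.23). *Tox* was nearest to *Egr2* (0.19). *Dusp6* and *Btg2* followed for *Egr1*, *Nfkbid* and *Dusp2* for *Egr2*, *Tox* for *Egr3*, *Dusp5* and *Fosb* for *Nr4a1*, and *Bhlhe40* and *Tox* for *Nr4a3*. For *Nr4a2* the nearest were *Zbtb16*, *Fosb* and *Dusp5*, at larger distances of 0.52 to 0.77. With 4 libraries such likeness is a description.

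Cofactors of these proteins did not differ beyond the threshold. *Nab2*, which encodes a corepressor bound by Egr proteins and is itself induced by them, had 140 and 104 CPM in WT and 131 and 119 CPM in cKO (log2 fold change 0.03, SE 0.14, edgeR quasi-likelihood adjusted p = 0.946). Of its 2941 exonic bases, 1241 overlap exons of genes on the opposite strand, so its count is uncertain. Its relative *Nab1* (0.06, adjusted p = 0.823) and the RXR partners of Nr4a receptors, *Rxra* (-0.15, adjusted p = 0.642) and *Rxrb* (0.09, adjusted p = 0.740), also had small log2 fold changes. *Rxrg* had 0 counts in each library.

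Upstream signalling genes were compared in the same way. Of 19 genes of Ras-ERK, SRF, CREB, MEF2 and calcineurin-NFAT signalling, all were tested and none passed, where the 4.30% called over all genes would bring under 1. They had a median log2 fold change of 0.01 against -0.0015 over all tested genes. The largest value belonged to *Ppp3ca*, which encodes a catalytic subunit of calcineurin, at 53.1 and 50.9 CPM in WT and 66.3 and 69.7 CPM in cKO (log2 fold change 0.39, SE 0.11, edgeR quasi-likelihood adjusted p = 0.104).

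Other genes that rise on T cell stimulation were compared next, from a list of 34 of which 31 were tested. Their median log2 fold change was 0.30, with 25 positive, and 7 were called higher in cKO and none lower, against 2.35% called higher over all tested genes. The 7 encode regulators of G protein signalling (*Rgs1*, *Rgs2*), an inhibitor of NF-kB (*Tnfaip3*), surface activation markers (*Cd69*, *Cd83*) and TNF receptors (*Tnfrsf4* for OX40, *Tnfrsf18* for GITR). The study counts *Cd83* among Treg signature markers, and *Foxp3* was also higher in cKO (log2 fold change 1.86). The part of cell composition in these calls was not tested. *Rgs1* had 20.8 and 12.8 CPM in WT against 49.7 and 50.8 CPM in cKO (log2 fold change 1.55, SE 0.20, edgeR quasi-likelihood adjusted p = 0.00511). *Cd69* had 136 and 127 CPM in WT against 268 and 186 CPM in cKO (0.79, SE 0.16, adjusted p = 0.0292). *Rgs2* rose by 1.08, *Cd83* by 0.97, *Tnfrsf4* by 0.75 and *Tnfrsf18* and *Tnfaip3* each by 0.62 on the log2 scale.

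The AP-1 genes *Fos*, *Fosb*, *Jun* and *Junb* on the same list, named after their values were seen, were not called. *Fos* had a log2 fold change of -0.50 and *Fosb* of -0.38, *Jun* of 0.57 and *Junb* of 0.23, with edgeR quasi-likelihood adjusted p of 0.260, 0.527, 0.332 and 0.216. *Irf4*, at 0.86 (adjusted p = 0.0564), had the largest value among genes of the list that were not called. The difference between the Egr and Nr4a genes and the rest of the list was not tested. The number called higher was 1 without WT 2 and 16 without cKO 2, fits in which the number over all 12403 genes also moved, from 291 to 91 and to 830. Of the 31 genes, 24 were higher in WT 1 than in WT 2, against 49.8% of all tested genes.

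**Figure D5:**
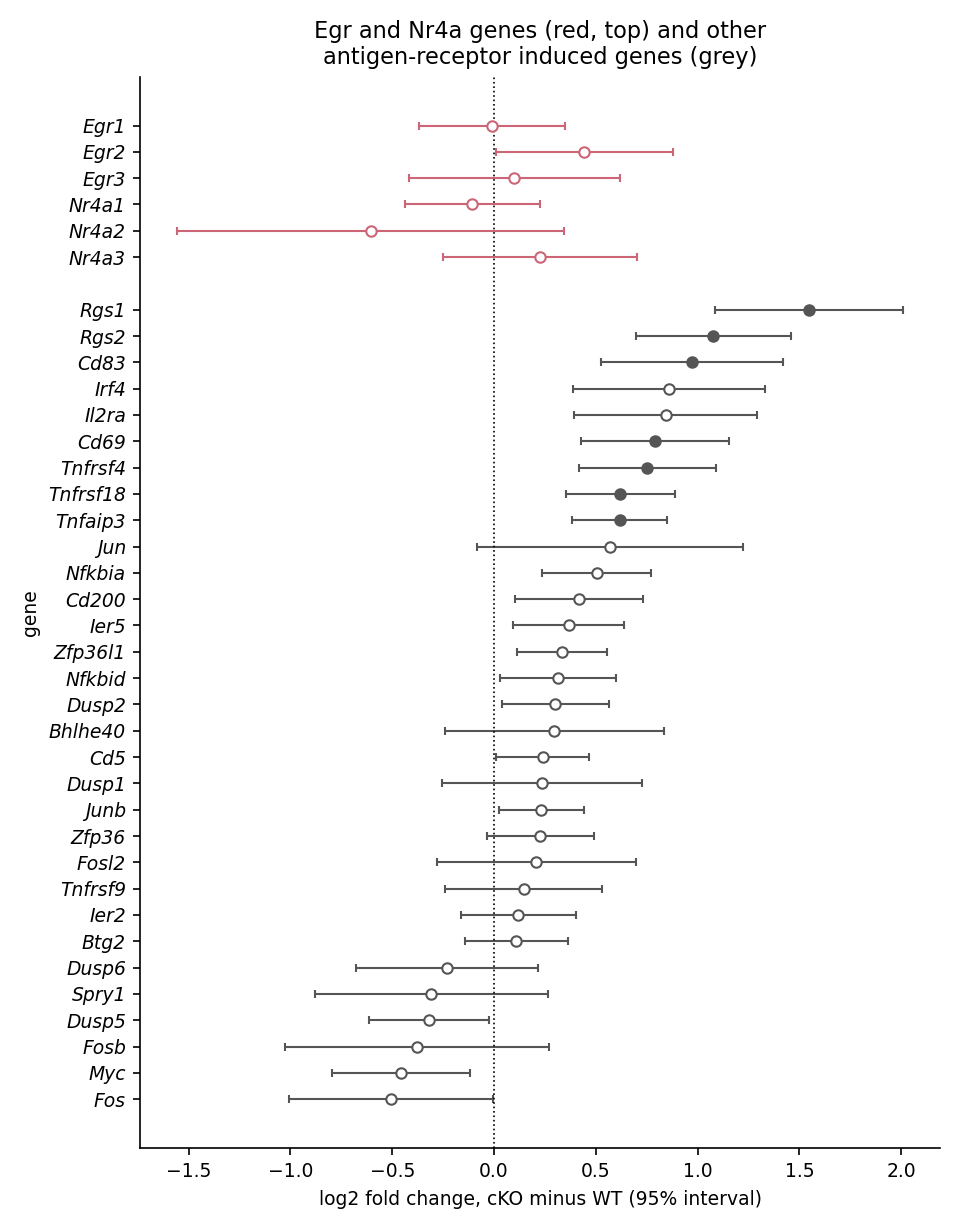
Log2 fold change, cKO minus WT, with 95% intervals from the edgeR quasi-likelihood fit, for the 6 Egr and Nr4a genes (red) and the 31 tested genes of the antigen-receptor list (grey). Filled points passed an adjusted p under 0.05, which 7 grey genes and no red gene did.

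Genes described as downstream of these factors were counted in the same fit. Of 12 tested Egr-linked genes 1 was called, close to the 4.30% called over all tested genes. It was *Id3*, an inhibitor of E proteins induced by Egr factors in thymocytes, at 49.1 and 48.6 CPM in WT against 86.1 and 88.4 CPM in cKO (log2 fold change 0.84, SE 0.11, edgeR quasi-likelihood adjusted p = 0.00511). *Fasl* had the largest value among those not called, 0.74 (adjusted p = 0.200), and the median of the list was 0.08. *Cblb*, a ubiquitin ligase of anergy linked to *Egr2* and *Egr3*, had a log2 fold change of 0.03 (adjusted p = 0.906).

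Of 10 tested Nr4a-linked genes 4 were called, all higher in cKO, against 2.35% called higher over all tested genes, and the median log2 fold change was 0.59 against -0.0015. *Foxp3*, which defines Tregs, rose by 1.86 on the log2 scale (SE 0.16, edgeR quasi-likelihood adjusted p = 0.000447). *Pdcd1*, which encodes PD-1, rose by 0.89 (adjusted p = 0.0113), the transcriptional repressor *Bcl6* by 0.61 (adjusted p = 0.0361) and the inhibitory receptor *Ctla4* by 0.58 (adjusted p = 0.0390). *Ikzf4*, at 0.72, did not pass (adjusted p = 0.0722). Without WT 2 the number called was 1, with 91 genes called higher over all genes against 291. The study's own question concerns *Foxp3* and *Pdcd1*, *Foxp3* is X-linked, and 856 of its 4577 exonic bases overlap genes on the opposite strand.

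Heat shock, myeloid and B cell genes were also counted. Their counts are to be read against 2.35% called higher and a median log2 fold change of -0.0015 over all tested genes. Of 8 tested heat shock genes 6 were called higher in cKO and the median log2 fold change was 0.83 (*Hspa1b* 2.43, *Hsph1* 1.74, *Dnaja1* 1.01, *Dnajb1* 0.95, *Hspa8* 0.72, *Hsp90aa1* 0.69). *Hspd1*, at 0.20, was not called (adjusted p = 0.361). The summed level of the 9 listed genes was 1142 to 1325 CPM in WT and 2092 to 2268 CPM in cKO, and 2 were called without WT 2, where 91 genes were called higher over all genes against 291. Of 9 tested myeloid markers 4 were called higher (*Ltf*, *S100a9*, *Lyz2*, *Cybb*), with a summed level of 35.5 to 43.5 CPM in WT and 67.4 to 114 CPM in cKO. *Ltf* and *S100a9* had 0 counts in WT 1 and 1 each in WT 2. *Csf1r* was not called (log2 fold change 0.62, adjusted p = 0.296), nor were *Itgam* (-0.85, adjusted p = 0.374) and *Cd68* (-0.29, adjusted p = 0.722), whose values were negative. Of 6 tested B cell markers 2 were called higher (*Cd74*, *Pax5*), with a summed level over the 10 listed of 492 to 623 CPM in WT and 526 to 777 CPM in cKO. Most of that sum was *Ighm*, at 583 and 445 CPM in WT and 582 and 448 CPM in cKO. The other 9 summed to 39.8 and 47.1 CPM in WT, 195.5 CPM in cKO 1 and 77.6 CPM in cKO 2, a sum computed after the data were seen. *H2-Aa* was not called (log2 fold change 2.02, adjusted p = 0.0866). B cells and myeloid cells also express Egr and Nr4a genes when stimulated. The part of these groups in the values of the Egr and Nr4a genes was not tested.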

How the data were processed

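The authors aligned reads to mm10 with HISAT2 2.1.0, counted them per gene with HTSeq (0.11.1 in the submitters' processing notes) and deposited raw counts per gene symbol. Annotation and strand setting are not given in the sources used here. Of reads counted to a gene, to no feature or as ambiguous, between 59.4% and 64.5% per library had no feature. These and the other HTSeq summary lines were left out.

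From these counts, genes were filtered with filterByExpr, libraries scaled by TMM (CPM uses the scaled sizes, per 1e+06 counts), and genotype tested with edgeR 4.0.16 (glmQLFit, glmQLFTest, two-sided) in R 4.3.3, with p-values adjusted by Benjamini-Hochberg over the 12403 genes. SE is the absolute log2 fold change divided by the square root of F. The procedure was tested on simulated data. Positions and exon lengths came from GENCODE M21 (GRCm38, the assembly of mm10), promoter windows from RefSeq GRCm38.p6. Protein sequences were not used here.

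Members and gene lists were chosen with earlier results of these data known. Named genes were the members, cofactors, and from each list the called genes (at most 8) and the largest uncalled one with an average log2 CPM of at least 2. *Cblb*, *Cd4*, *Cd3e*, *Itgam*, *Cd68*, *Ighm*, *Maf* and the AP-1 genes were named outside this rule, after their values were seen. Alternatives were RLE or total-count scaling, other low-count filters, DESeq2 1.42.0, the edgeR likelihood ratio and exact tests, thinning to the smallest total count, a block, an adjusted p under 0.01, and leaving out each library. Plots used matplotlib 3.10.9.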

Additional observations from a re-analysis of the deposited data

How the results depend on the processing

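Counts over gene lists were added as outcomes after the data were seen. The total of 533 called genes became 1367 without a low-count filter, 1096 in the likelihood ratio test, 1036 in the edgeR exact test and 153 at an adjusted p under 0.01, and between 174 and 1583 without 1 of the libraries. Replicate numbers are shared between genotypes, but the labels do not say that they pair libraries. Same-numbered libraries deviated together by a correlation of 0.0651 over 12403 genes, which cannot exclude a pairing that affects some genes. A replicate block gave 1165 calls, among them 1 member, *Egr2* (log2 fold change 0.46, edgeR quasi-likelihood adjusted p = 0.0305). In that fit 11 of the other antigen-receptor induced genes were called higher in cKO. *Egr2* was higher in cKO in all 13 alternative fits, with adjusted p from 0.0183 to 0.846, and was called in 3. No other member was called in any of them. *Egr1* was 0.0062 after thinning. Without single libraries, log2 fold changes were -0.23 to 0.19 for *Egr1*, 0.22 to 0.75 for *Egr2*, -0.25 to 0.62 for *Egr3*, -0.31 to 0.15 for *Nr4a1* and -0.080 to 0.67 for *Nr4a3*, with 0 to 1 members, 1 to 16 antigen-receptor, 2 to 6 heat shock and 1 to 6 Nr4a-linked genes called. In these fits the lone library is assumed to vary like the other genotype. Without a low-count filter 11 antigen-receptor and 7 Nr4a-linked genes were called higher in cKO. At an adjusted p under 0.01, 1 antigen-receptor, 3 heat shock and 1 Nr4a-linked gene were called higher. The cause was not tested. Depth limits *Nr4a2* most, with 12 to 39 counts.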

Other observations

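Genes of T cell state outside the antigen-signal lists were also counted. Of 7 tested naive T cell genes, *Ccr7*, a homing receptor, fell by 0.62 on the log2 scale (edgeR quasi-likelihood adjusted p = 0.0199) and *Il7r*, the IL-7 receptor, rose by 1.04 (adjusted p = 0.0257), whereas *Lef1* had a log2 fold change of -0.32 (adjusted p = 0.315). Of 7 tested genes of activated or memory T cells 1 was called, where 4.30% of all tested genes were. It was *Tbx21*, the T-bet gene, which fell by 1.05 (adjusted p = 0.0494). The list had 4 positive values and a median of 0.0035, and *Maf*, at 0.53, had the largest positive one (adjusted p = 0.0673). *Mki67*, a proliferation marker, had 162 and 198 CPM in WT against 35.3 and 98.2 CPM in cKO (log2 fold change -1.44, adjusted p = 0.0602). Among markers of CD8 T and NK cells, *Klrd1* fell by 2.79 (adjusted p = 0.0108) and *Cd8b1* by 0.91 (adjusted p = 0.0201), whereas *Cd8a* had a log2 fold change of -0.07 (adjusted p = 0.941). Among T cell markers *Zbtb7b*, the ThPOK gene, rose by 0.66 (adjusted p = 0.0117) and *Thy1* fell by 0.62 (adjusted p = 0.0169), and *Cd28*, at 0.18, was not called (adjusted p = 0.377).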
